A study of Mus musculus with 9 samples.

Results

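Brain RNA of transgenic mice given placebo (genotype TG) was compared with brain RNA of wild-type mice given placebo (genotype WT). The comparison takes 6 of the 9 libraries of the series, 3 per group, chosen by the genotype and treatment in the labels. The remaining 3 libraries come from TG mice treated with NM-101; they are shown beside some values because they share the unit of the TG placebo libraries. The labels name the tissue as brain and the cell type as oligodendrocyte. They give no strain, age or sex, do not say which transgene TG stands for or which promoter drives it, and do not say whether libraries came from separate animals. The title of the series names neuron-derived alpha-synuclein and oligodendrocytes, so the comparison asks which brain genes differ with the TG genotype when no active agent is given.

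Oligodendrocytes wrap axons in myelin and make large amounts of Mbp RNA, which encodes myelin basic protein. Microglia, the resident macrophages of the brain, sense purine nucleotides through receptors such as P2ry12 and P2ry13, and lower these receptors when they leave the surveying state.

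The deposited table gives 33299 RefSeq transcripts, and its columns are in 2 units. The WT columns are whole read counts, with totals of 10612290, 14041951 and 11774367. The TG columns are log2 values with 3 decimals, which behave as log2(FPKM + 1), that is fragments per kilobase of transcript, scaled to the library total. Their low values fell on whole reads once bases were taken off each transcript length: 187 bases in TG placebo 1, 228.5 in TG placebo 2 and 230 in TG placebo 3. With those lengths 80.2%, 83.5% and 82.2% of low values lay within 0.2 of a whole read, and the implied totals were 10820000 reads in TG placebo 1, 12840000 in TG placebo 3 and the most in TG placebo 2. Dividing by a shortened length raises short transcripts, whereas the WT counts carry no such term. The TG values were therefore put back over the full length (RPKM) or turned into RPM (reads of a gene per 1000000 reads of the library), the scale of most values below. Unit and genotype cannot be told apart in this table, so every comparison between TG and WT is a description without a test. A gene was called separated where all 3 TG placebo libraries lay outside all 3 WT libraries.

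**Figure D1:**
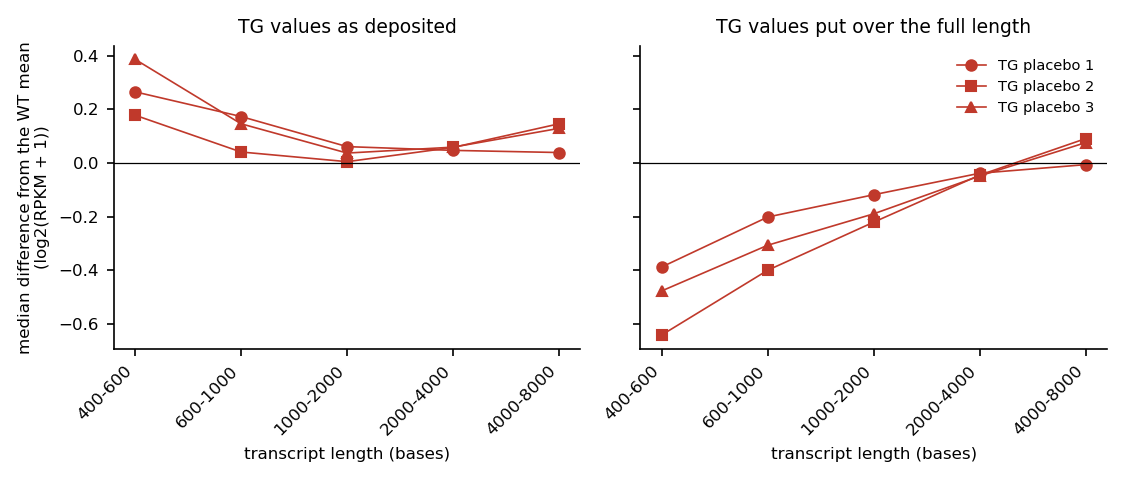
Median difference of each TG placebo library from the WT mean on the log2(RPKM + 1) scale, for genes with 1 transcript in bins of transcript length; left with the deposited TG values, right after putting them over the full length. In transcripts of 400 to 600 bases the medians were 0.18 to 0.39 above WT as deposited and 0.39 to 0.64 below WT over the full length (-0.39, -0.64 and -0.48), and from 2000 bases on they stayed within 0.1 of 0 over the full length.

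A trend with length remained after this step. In the 122 genes of 400 to 600 bases the median difference from WT was -0.39, -0.64 and -0.48 (log2(RPKM + 1)) in the 3 TG placebo libraries, and in the 3396 genes of 2000 to 4000 bases it was -0.04, -0.04 and -0.05. Groups of short transcripts are therefore given with and without a smooth trend on length and level. The reference lengths (GENCODE M21) also differ from the authors' lengths for many genes. For genes with 1 transcript and at most 20 RPM on average, a length could be checked: it had to put the values of at least 5 TG libraries on whole reads within 2% of the reference length. Of 3242 such genes 1871 passed, or 57.7%. Lengths made 10% too long passed in 2.7% of genes and lengths 10% too short in 3.6%. The 12 genes with the widest gap in each direction come from these 1871 length-checked genes. Other named genes and the gene lists also take in unchecked genes, whether or not this is said of the gene.

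The libraries differed within each group before any comparison of genotypes. Summed over 5 choroid plexus markers (Ttr, Kl, Folr1, Clic6, Aqp1), the tissue that makes cerebrospinal fluid, WT 1 had 3697 RPM and TG placebo 1 had 4710. The other 4 placebo libraries had 11.5 to 37.5. WT 1 and TG placebo 1 thus both held far more choroid plexus RNA than the rest of their groups.

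TG placebo 2 and 3 stood apart from TG placebo 1 in other genes. Malat1, a long noncoding RNA kept in the nucleus, had 462 RPM in TG placebo 1 against 3452 and 4822 in TG placebo 2 and 3, and 262 to 509 in WT. Meg3, another nuclear noncoding RNA, had 257 against 2444 and 2628, and 320 to 445 in WT. The summed level of 10 myelin markers was 10776 in TG placebo 1 and 3590 and 3395 in TG placebo 2 and 3, with WT at 8413, 6133 and 10022. Across 12268 genes the SD of the log2 difference was 0.178 between TG placebo 2 and 3, but 0.459 and 0.48 between each of these and TG placebo 1. Between pairs of WT libraries it was 0.262 to 0.319. Summed over the 12268 genes, RPM was 969425, 902527 and 906230 in TG placebo 1, 2 and 3, against 980513 to 980636 in WT. The part of these lower totals in the counts of lower genes was not tested. The part of these library differences in what follows is shown by the value of each library.

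**Figure D2:**
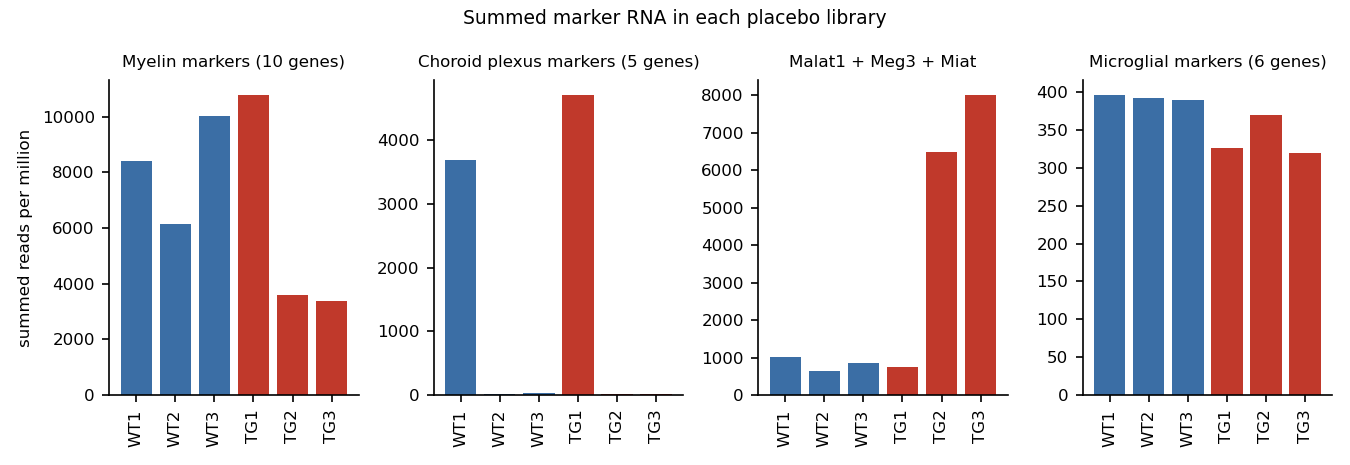
Summed RPM in each of the 6 placebo libraries for myelin markers, choroid plexus markers, 3 nuclear noncoding RNAs and microglial markers; each bar is 1 library and every axis starts at 0. TG placebo 1 resembles WT 1 in choroid plexus RNA, TG placebo 2 and 3 are high in nuclear RNA and low in myelin RNA, and the microglial sum is 320 to 370 in the TG placebo libraries against 389 to 396 in WT.

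The labelled cell type was checked against its markers. All 10 myelin markers were present in every library, but so were those of other brain cells. Summed over 7 neuronal markers, among them Snap25 and Syt1 of the synapse, WT held 6719 to 7210 RPM and TG placebo 5447 to 6627. Over 6 astrocyte markers WT held 6118 to 6914 RPM and TG placebo 3422 to 4315. Both sums were lower in each TG placebo library than in any WT library. Of 7 neuronal markers 5 were lower and 1 higher, and of 6 astrocyte markers 3 were lower and 0 higher. Among all genes 27.6% were lower and 12.8% higher. Summed over 29 neuronal genes the groups overlapped, at 25070 to 27301 RPM in WT and 26022 to 26731 in TG placebo. Over 30 astrocyte genes TG placebo was lower, at 14094 to 15701 against 16680 to 18130, mostly through Slc1a2. Slc1a2, an astrocyte marker unchecked in length, alone had 3322 to 3938 in WT against 1069 to 1603. Without Slc1a2 the sums over the 30 astrocyte genes overlap between the groups. The RNA was that of mixed brain tissue and not of oligodendrocytes alone.

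Sncb and Thy1, from a short list drawn up for neurons and glia, did not separate the groups. Both are unchecked in length. Sncb, which encodes beta-synuclein, had 333, 408 and 368 RPM in WT and 313, 391 and 411 in TG placebo. Thy1, a neuronal surface protein whose promoter is often used to drive transgenes in neurons, had 604 to 674 in WT and 611 to 644 in TG placebo. The labels of the TG libraries were not checked against a transgene here.

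The glial genes of the same list overlapped too, with 1 exception. Apart from this exception they are unchecked in length. Mbp, a major structural protein of compact myelin, had 4097, 3395 and 5571 RPM in WT and 5541, 1761 and 1704 in TG placebo. TG placebo 1 was as high as the WT libraries and TG placebo 2 and 3 were lower. Olig2, which specifies oligodendrocyte precursors, had 27.1, 26.8 and 35.9 in WT and 37.04, 29.2 and 23.2 in TG placebo. Tlr2, a Toll-like receptor that binds bacterial lipoproteins, was below the level minimum of the comparison with 0.50 to 1.98 in WT and 0.46 to 1.27 in TG placebo. Gfap, the intermediate filament of astrocytes, had 449, 477 and 607 in WT and 599, 336 and 264 in TG placebo. The exception was Aif1, the microglial calcium-binding protein Iba1, which is taken up with the microglial genes.

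Of the 1871 length-checked genes, 114 were higher in each TG placebo library than in any WT library (6.09%) and 301 were lower (16.1%). Most of these separations were narrow. The median gap between the nearest libraries was 0.08 (log2(RPKM + 1)) for the higher genes and 0.11 for the lower ones. A gap of 1.5-fold on this scale, which holds a pseudocount of 1, was kept by 1 higher gene (0.0534%) and 5 lower genes (0.267%). The pseudocount narrows gaps at low levels, so more genes pass this fold in RPM. Vwa3a, with 7.48 RPM against 4.42 between the nearest libraries, is such a gene. Over all 12268 genes compared, with lengths unchecked, the shares were 12.8% higher and 27.6% lower, and 2.76% and 2.85% with a 1.5-fold gap. The excess of lower genes was not kept under another scaling: with each library scaled by the median ratio to the others, 202 length-checked genes were higher and 204 lower. It also followed length, since 22.4% of checked genes of 1000 to 2000 bases were lower and 3.0% higher, against 9.2% and 11.0% of those of 4000 bases or more.

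Leaving out TG placebo 1 raised the counts to 405 higher and 487 lower. With TG placebo 1 alone against the WT libraries they were 403 and 779. A separation is easier to reach with fewer libraries, so these counts cannot be set directly against 114 and 301.

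The 12 genes with the widest gap above the WT libraries, all of them also separated by rank within each library, were described gene by gene. The widest gap belonged to Slc24a4, a sodium, potassium and calcium exchanger of neurons (chromosome 12, 102128727 to 102267133, GRCm38.p6). Its WT counts were 58, 83 and 55, and the reads recovered from the TG placebo values were 118, 174 and 137. In RPM this was 5.47, 5.91 and 4.67 in WT against 10.9, 12.5 and 10.7 in TG placebo, a mean ratio of 2.12 with SDs of 0.628 and 1.01 (n = 3 in each group). The lowest TG placebo library was above the highest WT library by more than the spread within either group, and the gene was chosen for this gap.

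Il6ra, the ligand-binding chain of the interleukin-6 receptor, had 4.62, 4.56 and 3.40 RPM in WT and 7.48, 6.48 and 6.54 in TG placebo. Ascc2, a subunit of the activating signal cointegrator complex that acts in alkylation repair and ribosome quality control, had 6.03, 5.84 and 6.79 against 9.60, 13.4 and 12.4. Rpusd3, a pseudouridine synthase of mitochondria, had 6.03, 6.27 and 6.12 against 8.96, 8.63 and 9.27. In Rpusd3 the values of each group were close together, with SDs of 0.12 and 0.319.

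Vwa3a had 3.77 to 4.42 RPM in WT and 7.48 to 12.1 in TG placebo. Rtl3, a gene derived from a retrotransposon, had 1.64 to 3.14 against 4.99 to 5.45. Smpd2, a neutral sphingomyelinase, had 8.66 to 10.6 against 12.6 to 13.5. In each of these the 3 TG placebo libraries were above the 3 WT libraries with no overlap, which is how they were chosen. Vwa3a and Rtl3, and Stk26 and Kif26b below, had WT means of 0.93, 0.91, 0.72 and 0.75 (log2(RPKM + 1)). These are under the level minimum of 1, which the 4 genes met through the TG placebo libraries.

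Utp11, which acts in assembly of the small ribosomal subunit, had 14.01 to 17.2 RPM in WT and 21.4 to 23.6 in TG placebo. Krt9, a keratin, had 7.69 to 11.1 against 14.1 to 22.96. Stk26, a kinase of the germinal centre kinase family, had 1.64 to 3.02 against 4.21, 14.2 and 12.4. In Krt9 and Stk26 the size of the difference came mostly from TG placebo 2 and 3, and TG placebo 1 was just above the WT libraries.

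Kif26b, a kinesin-like protein, had 8.19 to 10.1 RPM in WT, 17.4 to 21.3 in TG placebo and 15.9 to 26.8 in TG NM-101. The noncoding RNA Tomm6os had 4.59 to 6.12 in WT and 8.77 to 9.54 in TG placebo; it overlaps Tomm6, Frs3 and Prickle4, and since use of strand is not stated its reads cannot be told from theirs. In TG NM-101, which shares the unit of TG placebo, Tomm6os (4.04 to 5.57) and Rtl3 (1.52 to 3.15) lay near the WT level, whereas Kif26b overlapped TG placebo. TG NM-101 and TG placebo are set side by side only; the comparisons share the TG placebo libraries.

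**Figure D3:**
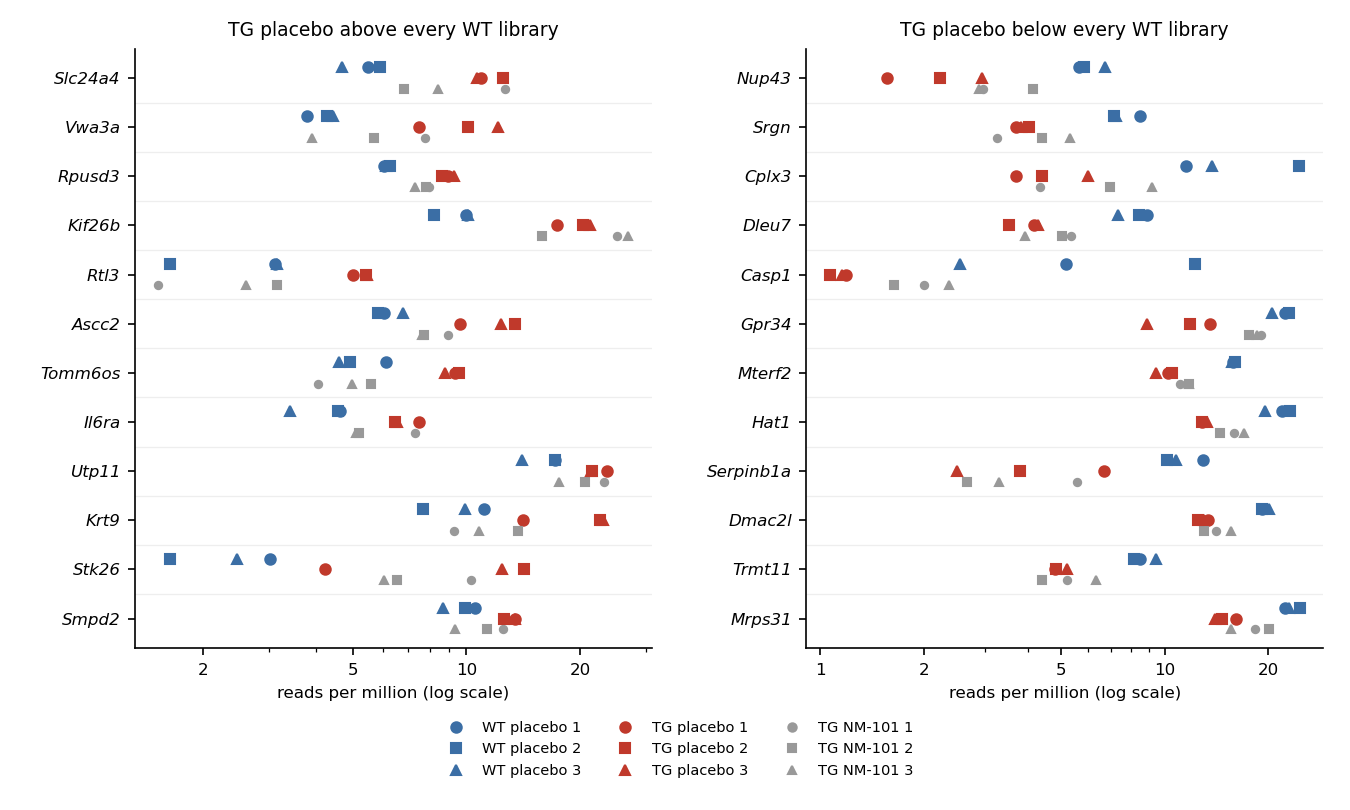
RPM on a log axis for the 12 length-checked genes with the widest gap above WT (left) and below WT (right); each point is 1 library, WT placebo in blue, TG placebo in red and TG NM-101 in grey. In every row the red and blue points do not overlap, which is how the genes were chosen. On the log2(RPKM + 1) scale that ranked the genes, Slc24a4, Nup43, Srgn and Cplx3 have the widest gaps. On the RPM axis drawn here the widest gap is that of Casp1.

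The 12 genes that stood lowest were described by role. Srgn, the proteoglycan core protein of immune cell granules, had 8.48, 7.12 and 7.22 RPM in WT and 3.70, 4.03 and 3.81 in TG placebo. Casp1, the protease that cleaves interleukin-1 beta in inflammasomes, had 5.18, 12.2 and 2.55 in WT and 1.19, 1.07 and 1.15 in TG placebo. The WT spread of Casp1 was wide: without WT 2 the difference was -0.98 in place of -1.45 (log2(RPKM + 1)). Its TG placebo mean of 0.81 was under the level minimum of 1, which Casp1 met through the WT libraries. Serpinb1a, an inhibitor of leukocyte proteases, had 12.9, 10.2 and 10.8 in WT and 6.65, 3.81 and 2.49 in TG placebo. All 3 genes lay below every WT library in each TG placebo library, which is how they were chosen.

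Cplx3, a complexin that regulates vesicle fusion in cortical subplate neurons and retina, had the lowest ratio of these 12 genes after Casp1. It had 11.5, 24.6 and 13.8 RPM in WT and 3.70, 4.39 and 6.00 in TG placebo, a mean WT level 3.54 times that of TG placebo. WT 2 was the highest of the WT libraries in both Casp1 and Cplx3. In TG NM-101 Cplx3 had 4.35, 6.93 and 9.20.

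Nup43, a component of the nuclear pore, had 5.65, 5.84 and 6.71 RPM in WT and 1.56, 2.22 and 2.95 in TG placebo. Its annotation overlaps Pcmt1. Hat1, the histone acetyltransferase of newly made histone H4, had 21.96, 23.1 and 19.5 against 12.8, 12.9 and 13.3. Dleu7 had 7.30 to 8.86 against 3.54 to 4.29. In all 12 of these lowest genes the 3 TG NM-101 libraries also lay below every WT library, and in 7 of the 12 highest genes they lay above; they share the TG unit.

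Apart from Gpr34, described with the microglial genes, the remaining 4 act in mitochondria or on transfer RNA. Mterf2, a mitochondrial transcription termination factor, had 15.7 to 16.0 RPM in WT and 9.42 to 10.5 in TG placebo. Dmac2l, a factor coupled to the mitochondrial ATP synthase, had 19.2 to 20.04 against 12.5 to 13.4. Mrps31, a protein of the small mitochondrial ribosomal subunit, had 22.3 to 24.6 against 14.02 to 16.1. Trmt11, a transfer RNA methyltransferase subunit, had 8.12 to 9.43 against 4.80 to 5.22. The median difference of checked genes was -0.11 (log2(RPKM + 1)) at 1000 to 2000 bases, which holds Mterf2, Dmac2l and Mrps31, and -0.02 at 2000 to 4000 bases, which holds Trmt11.

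The genes of homeostatic microglia were described as a group. Of 25 compared, 11 lay below every WT library (44.0%, against 27.6% of all genes) and 3 lay above, against 12.8% of all genes. The median difference was -0.23 (log2(RPKM + 1)), against -0.08 over all genes. By library the median was -0.23, -0.20 and -0.32 in TG placebo and between -0.06 and 0.01 in WT. It was 0.00 to 0.02 in the 3 TG NM-101 libraries. All 3 TG placebo libraries, including TG placebo 1, were below the WT libraries. With the trend on length and level removed the median was -0.11 and the libraries overlapped, and with the TG values as deposited it was -0.04 and they overlapped again.

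Gpr34, a lysophosphatidylserine receptor of microglia on chromosome X (13622650 to 13640859), was the clearest member. Its WT counts were 237, 323 and 241 and its recovered TG placebo reads were 147, 165 and 114. This was 21.9 ± 1.31 RPM in WT and 11.4 ± 2.38 in TG placebo (SD, n = 3 in each). The TG NM-101 libraries, at 19.1, 17.6 and 18.5, lay between the groups and near WT. The gene overlaps Cask.

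P2ry13, a receptor for ADP, had 14.5, 13.6 and 11.6 RPM in WT, 7.12, 9.00 and 6.93 in TG placebo and 11.7 to 12.5 in TG NM-101. P2ry12, the ADP receptor that directs microglial processes to injury, is unchecked in length and had 47.5, 54.6 and 54.1 in WT against 31.1, 34.9 and 30.6 in TG placebo. Its TG NM-101 libraries had 52.96, 34.2 and 43.3. Aif1 had 7.92, 8.83 and 9.94 in WT, 5.45, 5.39 and 6.77 in TG placebo and 3.77 to 5.30 in TG NM-101. For Gpr34, P2ry12, P2ry13 and Aif1 the placebo groups did not overlap, and Aif1 was the only one of them with all 3 TG NM-101 libraries below every TG placebo library.

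P2ry12 and P2ry13 lie next to each other on chromosome 3, inside Med12l, a subunit of the Mediator complex. Med12l itself, unchecked in length, had 15.5 to 21.0 RPM in WT and 22.9 to 34.4 in TG placebo, the opposite direction. The starts of the 2 receptor genes are shown because both were lower together; the sequences run 5′ to 3′ on the minus strand from RefSeq (GRCm38.p6), chr3:59262936-59263235 for P2ry12 and chr3:59210833-59211132 for P2ry13. Capitals mark GAGGAA or GGAAGT, short forms of the site bound by ETS factors such as the macrophage factor PU.1, searched on both strands. The letters GAGGAA occur in 28.3% and GGAAGT in 23.8% of 32851 promoter windows of 300 bases, so these matches are common and are a description only.
P2ry12: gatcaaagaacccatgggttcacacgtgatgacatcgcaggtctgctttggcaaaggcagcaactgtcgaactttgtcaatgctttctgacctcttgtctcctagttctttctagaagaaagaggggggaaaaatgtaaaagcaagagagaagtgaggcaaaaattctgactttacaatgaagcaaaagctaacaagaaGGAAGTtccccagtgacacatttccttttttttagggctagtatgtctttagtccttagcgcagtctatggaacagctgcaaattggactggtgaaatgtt
P2ry13: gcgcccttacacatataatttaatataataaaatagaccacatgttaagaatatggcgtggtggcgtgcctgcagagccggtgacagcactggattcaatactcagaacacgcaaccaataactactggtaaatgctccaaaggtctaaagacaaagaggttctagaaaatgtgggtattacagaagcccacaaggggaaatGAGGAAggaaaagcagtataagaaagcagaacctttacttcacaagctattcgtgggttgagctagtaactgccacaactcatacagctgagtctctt

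Other microglial genes did not go the same way. Tmem119, a surface protein of microglia, had 18.8 to 28.1 RPM in WT and 22.4 to 26.7 in TG placebo, and Csf1r, the receptor on which microglia depend, had 70.5 to 72.7 against 70.7 to 89.3. Both overlapped. Olfml3 and Mertk, a receptor for engulfing dying cells, were higher in TG placebo at 42.5 to 53.5 against 16.3 to 22.4 and 44.3 to 55.3 against 28.6 to 33.2; both are unchecked in length, and both were also high in TG NM-101. The sum of 6 microglial markers was 389 to 396 in WT and 320 to 370 in TG placebo. Of the 6 markers 3 were lower and 0 higher, against 27.6% and 12.8% of all genes. The sums of 7 neuronal and 6 astrocyte markers given above were lower as well, and their part in the microglial values was not tested. In bulk RNA fewer cells of a type and less RNA per cell cannot be told apart.

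**Figure D4:**
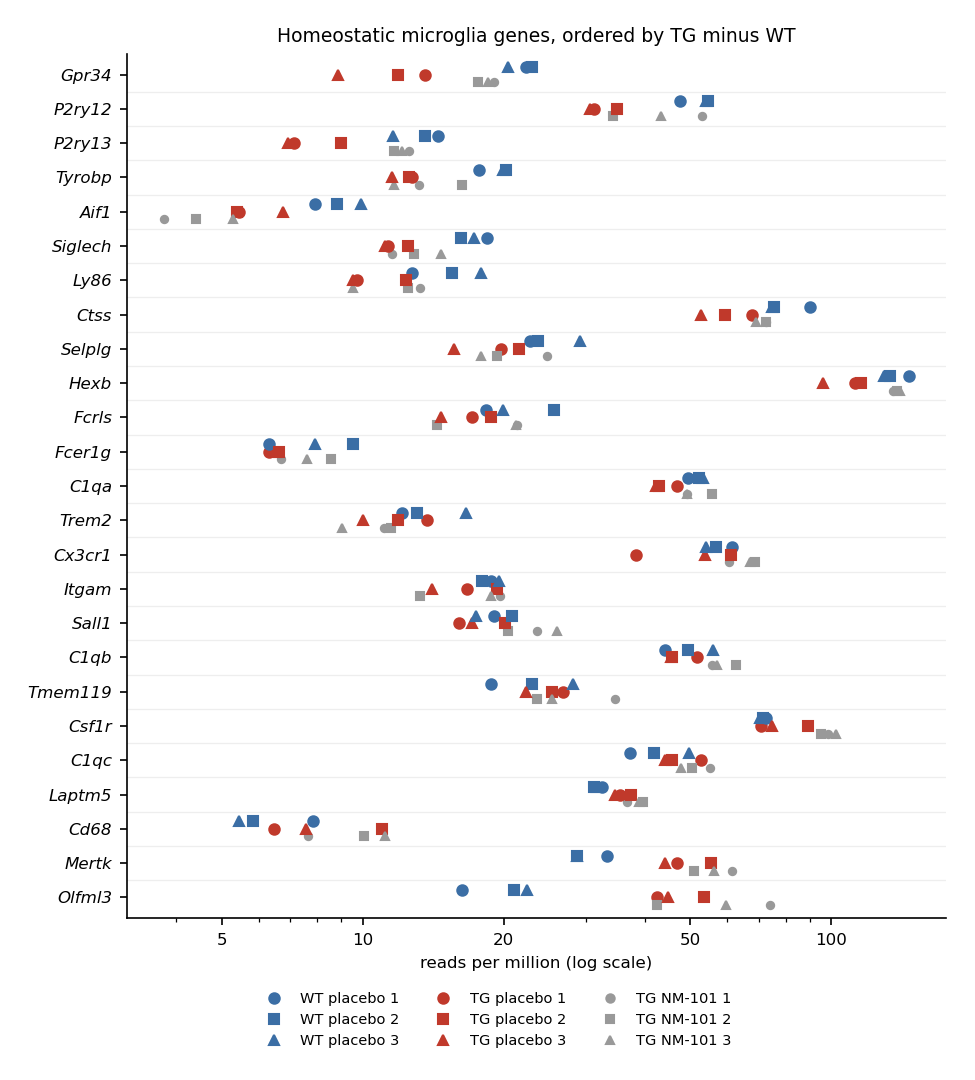
RPM on a log axis for the 25 homeostatic microglia genes compared, ordered from the lowest to the highest TG minus WT difference; each point is 1 library, WT placebo in blue, TG placebo in red and TG NM-101 in grey. Gpr34, P2ry12 and P2ry13 at the top are lower in all 3 TG placebo libraries than in any WT library, and Mertk and Olfml3 at the bottom are higher.

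Other immune lists were set beside the shares of all genes. Of 21 interferon-response genes compared, 7 lay below every WT library (33.3%, against 27.6% of all genes) and 1 above (4.8%, against 12.8%). The 6 length-checked members had a median difference of 0.01 (log2(RPKM + 1)), and 1 of them was lower. This was Irgm1, an interferon-induced GTPase, with 10.8, 7.69 and 10.3 RPM in WT and 5.54, 6.80 and 6.01 in TG placebo. Ifit3 (unchecked) had 6.41 to 7.98 against 2.40 to 3.97. Of 21 Toll-like receptor and NF-kB genes 4 were lower (19.0%) and 1 higher (4.8%), both shares under those of all genes; Tlr3, a receptor for double-stranded RNA, had 16.2, 16.6 and 13.9 in WT and 13.8, 12.6 and 9.77 in TG placebo. Of 15 cytokine and chemokine genes 3 were higher and 3 lower, a share above 12.8% and under 27.6%. The medians of these 3 lists were -0.22, 0.06 and 0.06 (log2(RPKM + 1)). They were not stable: the interferon median was -0.06 with the trend on length and level removed, the Toll-like receptor median was -0.03 in genes with 1 transcript, and the cytokine median was -0.11 at a mean of at least 3 and 0.12 with median-ratio scaling.

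Genes of protein synthesis and respiration had the highest shares of lower members among the lists. Of 71 cytoplasmic ribosomal protein genes 47 lay below every WT library (66.2%, against 27.6% of all genes) and 11 above (15.5%, against 12.8%), with a median difference of -0.44 (log2(RPKM + 1)). Of 71 respiratory chain genes 44 were lower (62.0%) and 10 higher (14.1%), with a median of -0.35. With the trend on length and level removed the medians were -0.07 and 0.03, and with the TG values as deposited 0.04 and 0.16. The direction for both groups thus depends on how length enters the value, and none of their members could be length-checked. The direction also turned with the trend removed for 33 proteasome genes (18 lower or 54.5%, 6 higher or 18.2%, median -0.23, and 0.03 with the trend removed).

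The unchecked and the length-checked chaperones differed. Of 28 heat shock and chaperone genes 15 lay below every WT library (53.6%, against 27.6% of all genes) and 4 above (14.3%, against 12.8%), with a median of -0.25 that became -0.05 with the trend removed. The 4 length-checked members had a median of 0.25, with 0 lower and 1 higher. Hspa9, the mitochondrial Hsp70, is unchecked and had 249 to 281 RPM in WT and 192 to 211 in TG placebo. Hsf1, the transcription factor that induces chaperones, is the higher checked member, with 14.9, 18.7 and 16.8 in WT and 22.6, 19.4 and 26.2 in TG placebo. Both placebo groups were separate in these 2 genes.

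Of 44 gene lists, 14 had all 3 TG placebo medians below the WT medians and 1 had them above. All genes together also had lower medians, at -0.09 in each TG placebo library, so a median near this value is near the background. After median-ratio scaling 5 of the 14 lists stayed below: homeostatic microglia, metal handling, cytoplasmic ribosomal proteins, respiratory chain, and neurofilament, tubulin and axonal transport. After removal of the trend on length and level 1 stayed below, the neurofilament, tubulin and axonal transport list, with a median of -0.04 (-0.17 without that step). In this list of cytoskeletal genes 16 of 34 were lower (47.1%, against 27.6% of all genes) and 4 higher (11.8%, against 12.8%); Nefl, the light neurofilament chain, was higher by 0.67 and Stmn1, which destabilises microtubules, lower by a difference of -0.79, both unchecked. Nefl and Stmn1 were named after their values were seen, as were Aspa, Hspa9, Slc1a2, Ifit3, Tmem119, Csf1r and Col6a1. The list of oligodendrocyte precursors and lineage factors was the 1 above, with a median of 0.04, and 4 of its 21 genes were higher (19.0%, against 12.8% of all genes) and 2 lower (9.5%, against 27.6%).

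**Figure D5:**
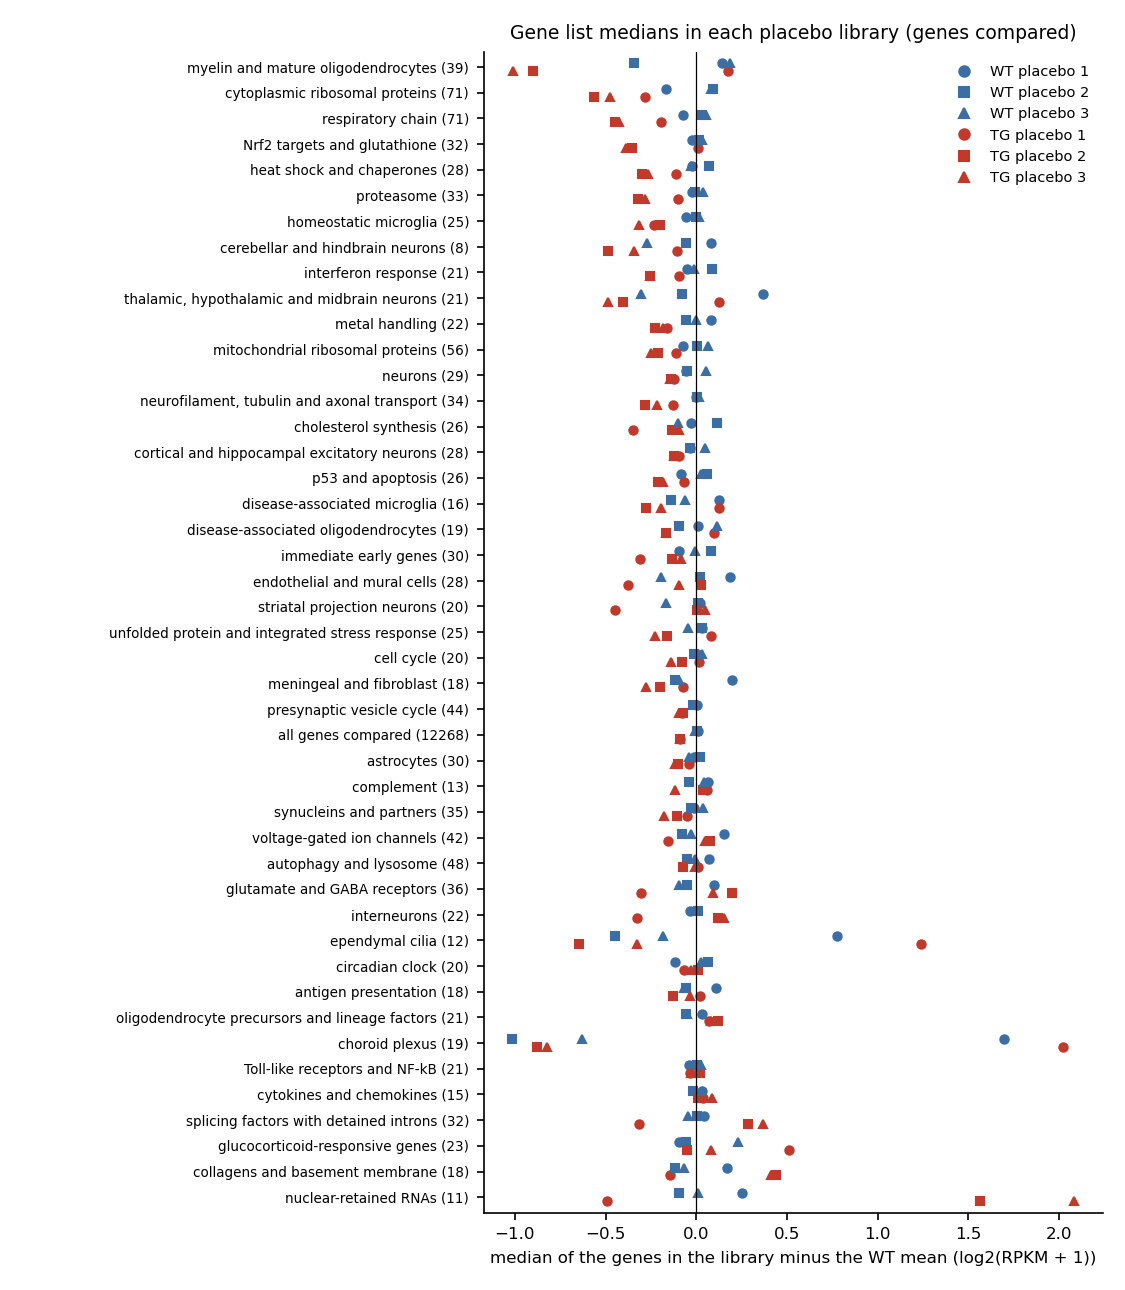
Median over the genes of each list in each placebo library, after taking off each gene's WT mean, on the log2(RPKM + 1) scale; blue points are WT and red points TG placebo libraries, and the number of genes compared is in brackets. The myelin, choroid plexus, ependymal, collagen and nuclear RNA rows are spread by single libraries. The microglial list is 1 of 14 lists with all 3 red points to the left of the blue ones.

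In 3 of the 4 lists with the widest median differences (myelin, nuclear RNAs and collagens) the TG placebo libraries disagreed with each other. Of 39 myelin genes 4 lay below every WT library (10.3%, under the 27.6% of all genes) and 0 above, and the median was 0.17 in TG placebo 1, -0.90 in TG placebo 2 and -1.01 in TG placebo 3. The WT medians were 0.14, -0.34 and 0.19. Aspa, which splits N-acetylaspartate in oligodendrocytes and is length-checked, had 27.4, 15.5 and 22.7 RPM in WT and 20.1, 7.87 and 6.66 in TG placebo. The groups overlapped through TG placebo 1.

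Nuclear-retained RNAs and collagens showed the reverse split. The median of 11 nuclear RNAs was -0.49 in TG placebo 1 and 1.57 and 2.08 in TG placebo 2 and 3 (log2(RPKM + 1)). Of 18 collagen and basement membrane genes 0 lay above every WT library, and the medians were -0.14, 0.44 and 0.41. Col6a1, a chain of collagen VI, is unchecked in length. It had 2.67 RPM in TG placebo 1 and 66.4 and 58.7 in TG placebo 2 and 3, with 5.27 to 6.88 in WT. TG placebo 1 against TG placebo 2 and 3 is a comparison within 1 unit.

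Of choroid plexus and ependymal genes, 0 of 19 and 0 of 12 were separated in either direction. Astrocyte genes had a median of -0.08, the same as all genes, with 7 of 30 lower (23.3%) and 3 higher, both shares under those of all genes, although the sum of the 6 astrocyte markers was lower as given above. Slc1a2, the main glutamate transporter of astrocytes, had 3322 to 3938 RPM in WT and 1069 to 1603 in TG placebo, and 2000 to 3700 in TG NM-101; it has 3 transcripts and its lengths are unchecked. Neuronal genes had 11 of 29 lower (37.9%, against 27.6% of all genes) and 2 higher (6.9%, against 12.8%), with a median of -0.17. It was -0.09 with median-ratio scaling and -0.03 with the trend removed, and the libraries then overlapped.

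Among length-checked genes the largest difference in means belonged to Trh, thyrotropin-releasing hormone, named here after its values were seen. It had 1.04, 0.85 and 0.08 RPM in WT and 1.20, 20.6 and 20.9 in TG placebo. Its mean over the 6 libraries met the level minimum through TG placebo 2 and 3. TG placebo 1 was barely above WT 1, and the TG NM-101 libraries had 11.7, 9.92 and 0.60. Adamts10, a secreted protease, is unchecked in length. It was the 1 gene listed at 0 in all 3 WT libraries with a mean of at least 1 RPM in TG placebo. It had 4.59, 7.16 and 2.79 there and 0, 0 and 1.76 in TG NM-101.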

How the data were processed

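The table holds 9 brain libraries, extracted with a kit for fixed tissue and made with a QuantSeq (3′ end) kit per the labels' protocols. Bowtie2 and the build mm10 are named in the submitters' processing notes; no label names the counting program or the annotation. The WT columns are read counts as deposited by the authors. The TG columns are log2 values as deposited by the authors, read here as log2(FPKM + 1) from their steps, not from the labels.

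RefSeq (GRCm38.p6) named 32394 of 33299 transcripts. Lengths came from GENCODE M21, and genes with a transcript of unknown length or under 400 bases were left out. For each TG library the depth and the bases taken off each length were fitted so that low values gave whole reads. Values were summed per gene and written as log2(RPKM + 1), a pseudocount of 1; genes with a mean of at least 1 over the 6 libraries were compared (12268). The correction of TG lengths and the narrowing to length-checked genes were chosen after seeing the data; such a gene must also fail at a length divided by 2. The procedure was run on simulated data that held no trend with length between the groups, so that run does not bear on the trend seen here. No test was made, since unit and genotype cannot be told apart.

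Named genes are a fixed set of 11 (some are not reported here), then the 12 length-checked genes per direction with the widest gap that also separated by rank, without predicted loci (7 of the higher and 26 of the lower genes), then members of each list with the widest gap. The members and lists were chosen with earlier results of these data known. The labels do not say that libraries are separate animals, so spreads may be technical. Analyses used Python 3.11.15, pandas 2.3.3 and statsmodels 0.14.6. Alternatives are given in the closing section.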

Additional observations from a re-analysis of the deposited data

How the results depend on the processing

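The counts of separated length-checked genes (114 above and 301 below every WT library, 1 and 5 with a 1.5-fold gap in log2(RPKM + 1)) depended on several choices. Genes above numbered 202 with median-ratio scaling, 8 at a mean of at least 3 and 233 with no filter on the mean; genes below numbered 77 at a mean of at least 3. With the 1.5-fold gap, 0 and 0 genes were left at a mean of at least 3, 4 above and 8 below with a pseudocount of 0.1, 2 above and 2 below with the trend on length and level removed, and 3 below with median-ratio scaling. Leaving out each library in turn gave 147 to 405 above, 362 to 487 below, 1 to 48 above with the gap and 5 to 13 below with it; the highest value of each came without TG placebo 1. Without WT 1 and without WT 3 there were 233 and 189 above. Since a separation is easier to reach with fewer libraries, counts from fewer libraries tend to run higher by construction.

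The following alternatives were chosen after seeing the data. With TG values as deposited, 251 genes were above and 143 below, 2 and 1 with the gap. Over all genes compared there were 1568 and 3386, 338 and 350 with the gap. With TG placebo 1 alone there were 403 and 779, 16 and 38 with the gap. With TG placebo 2 and 3 against WT 2 and 3 there were 528 and 575, 63 and 24 with the gap. The counts from fewer libraries tend to run higher by construction, and the cause of the other shifts was not tested.

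List medians changed sign in 106 of 659 values, in 36 of the 44 lists; 89 of these were in lists whose placebo libraries overlapped to begin with. In the lists whose libraries did not overlap, the 17 changes were as follows. With median-ratio scaling, astrocytes became 0.0041 and synucleins and partners 0.0053. With the trend removed, astrocytes became 0.0883, synucleins and partners 0.0509, proteasome 0.0276, mitochondrial ribosomal proteins 0.09, respiratory chain 0.0304 and the presynaptic vesicle cycle 0.0046. At a mean of at least 3, oligodendrocyte precursors became -0.017, and in genes with 1 transcript, cortical and hippocampal excitatory neurons became 0.0625. With TG values as deposited, astrocytes became 0.0677, cortical and hippocampal excitatory neurons 0.0388, synucleins and partners 0.0712, interferon response 0.0029, cytoplasmic ribosomal proteins 0.0352, mitochondrial ribosomal proteins 0.1183 and respiratory chain 0.1556. No difference of the 24 genes with the widest gaps changed sign under the alternatives run. Most of these alternatives could not change it, because the genes were chosen with all libraries of 1 group outside the other. That holds for leaving out or choosing libraries and for the smaller pseudocount, and the level filters leave a gene's difference as it was. Of 336 values 255 moved by less than the SD of the TG placebo libraries and 81 by more, and the unmoved values of the filters are among the 255.

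No paired analysis was possible because the comparison carries no test and the labels do not pair the libraries. Deviations of same-numbered libraries from their group means correlated at 0.21, 0.189 and 0.001 across genes. Depth limits genes with few reads, such as Casp1 with 30 to 172 WT counts.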
